A study of Mus musculus with 3 samples.

Results

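The Schlafen family genes Slfn1, Slfn2, Slfn3, Slfn4, Slfn5, Slfn8 and Slfn9 are 7 of the 55536 annotated mouse genes in the tables. They were taken by symbol, and the choice was made with earlier results of these data known. RNA was taken from the chromatin fraction of bone marrow-derived macrophages of C57BL/6J mice, that is, from RNA still attached to chromatin, depleted of ribosomal RNA and sequenced. There was 1 group of 3 libraries, and all 3 came from cells given lipid A, the part of bacterial lipopolysaccharide that activates the receptor TLR4, at 100 ng/ml for 30 minutes. No untreated library and no other time was analysed here, so the levels below are levels after treatment and no response to lipid A can be read from them. Sex and age were not recorded in the labels. The starting amount of RNA differed, at 1 µg for library 1, 250 ng for library 2 and 500 ng for library 3, so any effect of that amount and any other difference between the replicates cannot be told apart. All 3 point to a single donor record, and SDs therefore describe the spread between these libraries, which may be technical.

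Schlafen proteins share an N-terminal part that in several members can bind or cut transfer RNA. The family is sorted by length into short members, intermediate members that carry a further linker, and long members that add a helicase-like part. Type I interferon, which macrophages make after TLR4 is engaged, is a known inducer of many of them, and the family is studied for its part in the quiescence of immune cells and in limiting virus growth. Slfn2 is best known from mice whose T cells and monocytes lose quiescence when it is mutated. Slfn4 is known as a gene induced in myeloid cells by Toll-like receptor ligands.

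Expected counts on annotated genes summed to 16301150, 17033725 and 16205704 in libraries 1, 2 and 3, so that 3 counts, the limit that a count of 0 allows, equal 0.18 to 0.19 CPM (counts scaled to a fixed library total). TPM (a level per transcript length, scaled to the same total in each library) carried a shift between libraries, with the median detected gene at -0.37, -0.14 and 0.52 log2 from its mean in libraries 1, 2 and 3, so levels of different genes are set side by side within a library and the spread of a gene between libraries is given in log2 CPM. All 10 macrophage markers were detected, with a summed level of 734 to 1140 TPM. None of 6 B cell and none of 7 neutrophil markers reached a mean of 10 expected counts, and 2 of 10 T and NK cell markers did, Cd28 and Cd247, with 5 of the 10 at 0 in every library. In the second quantification, a separate one of the same reads described below, Cd3d, at 0.01 TPM here, was at 14.1 TPM on average and Cd3g, at 0 here, at 0.659 TPM. The highest B cell marker there was Ebf1 at 2.23 TPM, against 0.02 here. The highest neutrophil marker there was Mpo at 1.09 TPM, against 0.0733 here. Of the B cell and neutrophil markers, S100a8, S100a9 and Elane were lower there and Cd79b was at 0 in both. Of the dendritic cell markers 2 of 5 were detected (sum 0.76 to 1.69 TPM), of the erythroid and platelet markers 3 of 6 (Pf4, Gp9 and Alas2, sum 11.4 to 24.9 TPM) and of the stromal markers 3 of 4 (sum 0.04 to 1.05 TPM). The T and NK cell markers summed to 16.2 to 55.1 TPM, most of it Cd28 at 29.3 ± 21.4 TPM (SD, n = 3), and the part of other cells in the Schlafen levels was not tested.

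All 7 genes lie in one cluster on chromosome 11, between positions 82951349 and 83215154 of mm10, a span of 264 kb that holds no other protein-coding gene in GENCODE M21. From the lower coordinate the order is Slfn5, Slfn9, Slfn8, Slfn2, Slfn1, Slfn4 and Slfn3. Slfn8 and Slfn9 are on the minus strand and the other 5 members on the plus strand. Stretches before 4 of the start sites are shown because they belong to the pair with the most alike coding sequence, Slfn8 and Slfn9, and to the members with the highest and the lowest level, Slfn2 and Slfn1. Each is the 120 bases before the RefSeq start (GRCm38.p6, the mm10 assembly), 5′ to 3′ on the gene's own strand, and all 7 members had an entry. The RefSeq start of Slfn1 lies 29 bases from its GENCODE start.

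Slfn8, chr11:83020811-83020930, minus strand: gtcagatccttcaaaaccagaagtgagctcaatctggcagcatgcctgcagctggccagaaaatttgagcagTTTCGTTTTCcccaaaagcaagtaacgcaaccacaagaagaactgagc
Slfn9, chr11:82991831-82991950, minus strand: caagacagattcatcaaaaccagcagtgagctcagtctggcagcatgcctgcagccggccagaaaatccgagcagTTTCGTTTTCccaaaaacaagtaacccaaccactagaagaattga
Slfn2, chr11:83064992-83065111, plus strand: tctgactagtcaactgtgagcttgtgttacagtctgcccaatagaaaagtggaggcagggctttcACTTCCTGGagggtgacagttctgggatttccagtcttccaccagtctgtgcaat
Slfn1, chr11:83116700-83116819, plus strand: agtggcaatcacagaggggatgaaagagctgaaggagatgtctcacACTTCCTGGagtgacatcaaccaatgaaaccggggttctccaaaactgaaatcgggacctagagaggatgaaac

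In Slfn8 and Slfn9 the capitals mark a match to TTTC and TTTC with any 2 bases between, letters like those of the interferon-stimulated response element, searched on both strands over 250 bases before and 50 after the start. The match began 48 bases before the start of Slfn8 and 45 bases before that of Slfn9, and both genes had the same 10 letters there. Slfn5 had a match on the other strand, GAAAAAGAAA, beginning 155 bases before its start. These 3 of the 7 members had the motif, against 3.44% of 32851 promoters of the same length. TTCNNNGAA, the letters of the interferon-gamma-activated site, was in none of the 7 windows, against 8.30% of all promoters. GGG and TTTCC with exactly 2 bases between, letters of a kB site, were in none either, against 1.63% of all promoters. Other spacings were not searched. The Slfn2 stretch above holds GGGATTTCC, and the 120 bases before the start of Slfn5 hold GGGGTTTCC, each with a shorter gap. The share of all promoters with such a shorter form was not counted. In Slfn2 and Slfn1 the capitals mark ACTTCCTGG, a stretch that was noticed in these windows. It stood 34 to 74 bases before the starts of Slfn1, Slfn2, Slfn3 and Slfn4 and in 0.843% of all promoters. Because the stretch was picked from these same windows, that share is no test of it. TGANTCA, the letters of an AP-1 site, occurred in 1 member, Slfn4, as TGACTCA beginning 34 bases before the start, against 7.81% of all promoters. These are matches of letters and no binding was measured.

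Of the 7 genes, 6 were detected, that is, had a mean of at least 10 expected counts, against 49.9% of 22028 protein-coding genes. The levels fell into 3 tiers on the TPM scale of the first quantification, with Slfn2, Slfn5 and Slfn8 at 47.6 to 116.5 TPM on average, Slfn3, Slfn4 and Slfn9 at 2.13 to 3.63 TPM, and Slfn1 at 0.0633 TPM. The 7 genes summed to 237.8 ± 58.1 TPM and to 0.0842% ± 0.0171 of all expected counts (SD, n = 3). Slfn2, Slfn5 and Slfn8 together made up 96.6% ± 0.336 of the summed TPM of the family (SD, n = 3).

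**Figure D1:**
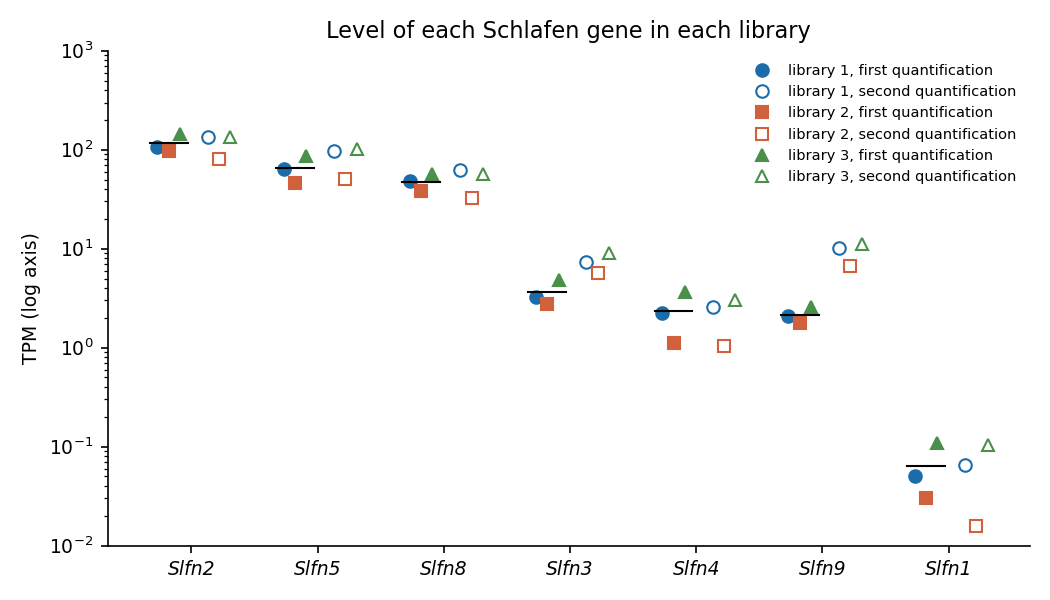
Level of each Schlafen gene in TPM (log axis) in each library, with filled symbols for the first quantification, open symbols for the second and a line at the mean of the 3 filled symbols. Slfn2, Slfn5 and Slfn8 lie above 30 TPM in every library in both, Slfn1 lies at or below 0.11 TPM, and Slfn9 is at 2.13 TPM in the first and 9.35 TPM in the second quantification.

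Among the short members, Slfn2 and Slfn1, the family's highest and lowest levels stood side by side. Slfn2 (ENSMUSG00000072620.3, coding for 378 residues) was at 107.45, 96.51 and 145.62 TPM in libraries 1, 2 and 3, a mean of 116.5 ± 25.8 TPM (SD, n = 3), from 4201, 3375 and 3361 expected counts. This placed it above 97.6% of the 10983 detected protein-coding genes by mean TPM. Slfn1 (ENSMUSG00000078763.2, 337 residues), first studied as a regulator of thymocyte growth, had 2, 1 and 3 counts, or 0.05, 0.03 and 0.11 TPM. Slfn1 was the only member that did not reach the minimum of 10 counts, and the libraries overlap within counting error. Per transcript length, Slfn2 exceeded Slfn1 by a ratio of 2390 in library 1 (95% interval 660 to 19700), 3850 in library 2 (690 to 152000) and 1280 in library 3 (437 to 6200). These are exact binomial intervals on the counts of both genes, and they cover counting error only. The start sites of the pair lie on the same strand, 46.2 kb separate the genes, and their coding sequences were identical at 71.7% of aligned bases.

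The intermediate members Slfn3 and Slfn4 are neighbours, 1.11 kb apart, with coding sequences identical at 92.2% of aligned bases. Slfn3 (ENSMUSG00000018986.10, 640 residues), studied as a differentiation gene of the gut lining, was at 3.26, 2.76 and 4.88 TPM in libraries 1, 2 and 3, a mean of 3.63 ± 1.11 TPM (SD, n = 3). Slfn4 (ENSMUSG00000000204.16, 602 residues) was at 2.26, 1.12 and 3.65 TPM, a mean of 2.34 ± 1.27 TPM (SD, n = 3), from 219, 97 and 200 counts. Library 2 held the lowest value of both genes, and the values of the pair overlapped. Within each library Slfn3 exceeded Slfn4, by 0.72 ± 0.45 on the log2(TPM + 0.1) scale (SD, n = 3). Without the length correction this difference was -0.01, so that it depends on the transcript lengths used. It also counts Slfn3-203, an annotated transcript with no coding sequence, at 1.44, 1.52 and 1.74 TPM in libraries 1, 2 and 3. The coding Slfn3-201 was at 0.97, 1.02 and 2.00 TPM and Slfn3-202 at 0.85, 0.22 and 1.14 TPM. The order is therefore one of whole genes and not of their coding transcripts.

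Among the long members, Slfn5 and Slfn8 were high and Slfn9 low. Slfn5 (ENSMUSG00000054404.13, 884 residues), an interferon-inducible member found in the nucleus, was at 64.02, 45.82 and 86.70 TPM in libraries 1, 2 and 3, a mean of 65.5 ± 20.5 TPM (SD, n = 3). It had the most reads of the family, 7675, 5032 and 6357 counts, which were 45.7% ± 2.66 of the family's counts and 27.2% ± 2.27 of its TPM (SD, n = 3). Slfn8 (ENSMUSG00000035208.16, 910 residues) was at 47.83, 37.93 and 57.08 TPM, a mean of 47.6 ± 9.58 TPM (SD, n = 3). Slfn9 (ENSMUSG00000069793.12, also 910 residues) was at 2.07, 1.77 and 2.56 TPM, a mean of 2.13 ± 0.399 TPM (SD, n = 3), from 301, 217 and 200 counts. Slfn8 and Slfn9 did not overlap.

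Slfn8 and Slfn9 are the closest pair of the family in sequence and were far apart in level. Their coding sequences, 2730 nt each, were identical at 92.7% of bases, with a longest identical run of 139 bases. Their 300-base promoter windows were identical at 248 bases of 292 aligned, and both held the TTTCGTTTTC match printed above. Slfn8 exceeded Slfn9 by 4.41 ± 0.06 on the log2(TPM + 0.1) scale (SD, n = 3), with the same sign in 3 of 3 libraries. In the second quantification the difference was 2.39 ± 0.17 (SD, n = 3), so its size depended on the quantification and its sign did not.

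Each pair of members was compared within libraries by flipping the signs of the 3 differences in every way (an exact permutation test, two-sided), which cannot give a p below 0.25. Of 21 pairs, 20 had the same sign in 3 of 3 libraries, each at the smallest p the exact permutation test can give, 0.25, and at p = 0.2625 after Benjamini-Hochberg adjustment over the 21, so no pair passed 0.05. Neighbours in the order differed by 0.86 ± 0.19 (Slfn2 over Slfn5), 0.43 ± 0.17 (Slfn5 over Slfn8), 3.70 ± 0.16 (Slfn8 over Slfn3), 0.72 ± 0.45 (Slfn3 over Slfn4) and 3.79 ± 0.11 (Slfn9 over Slfn1) on the log2(TPM + 0.1) scale (SD, n = 3). Each of these exceeded its SD between libraries. Slfn4 and Slfn9 could not be ordered, with a difference of 0.00 ± 0.57 (SD, n = 3) and p = 1 in the same exact permutation test. In the second quantification this pair was ordered, with Slfn4 minus Slfn9 at -2.12 ± 0.42 (SD, n = 3), and 21 of 21 pairs had one sign in all 3 libraries. In the first quantification 2 steps of over 3 log2 units separate the 3 tiers. In the second the step below Slfn8 was 2.39, to Slfn9, and the middle tier was itself spread, with Slfn3 minus Slfn4 at 1.79 ± 0.49 (SD, n = 3). On log2 CPM, which ignores length, Slfn5 and not Slfn2 was the highest member, and Slfn2 minus Slfn5 was -0.79 ± 0.19 (SD, n = 3).

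The level did not follow the order along the chromosome. Slfn9, at 2.13 TPM, lies between Slfn5 and Slfn8, 13.5 kb from the first and 10.3 kb from the second, and Slfn1 lies between Slfn2 and Slfn4. The cluster also holds 15 annotated non-coding genes or pseudogenes, of which 5 were detected in the first quantification. Slfn10-ps, a pseudogene of the family between Slfn8 and Slfn2, was at 30.89, 33.47 and 33.99 TPM in libraries 1, 2 and 3, a mean of 32.8 ± 1.66 TPM (SD, n = 3). That is above the level of 4 of the 7 members. On log2 CPM Slfn10-ps was at 7.51, 7.39 and 6.73 in libraries 1, 2 and 3, a range of 0.78. Its small SD in TPM therefore does not show a steady level. Gm20234, annotated antisense to Slfn2, was at 29.1 ± 10.2 TPM (SD, n = 3), Gm11425 at 23.2 ± 3.09 TPM, Gm48434 at 5.35 ± 0.690 TPM and Slfn5os at 1.60 ± 0.486 TPM. These are levels of the first quantification. In the second, Slfn5os was at 6.31 TPM on average, and Mir7679, another of the 15 with 0 counts in the first, at 87.85 TPM. That level of Mir7679 came from 45, 31 and 29 counts in libraries 1, 2 and 3. Its entry runs only from position 82985003 to 82985065, inside the span of Slfn9, so few counts give a large TPM. Gm27598, another microRNA entry with 0 counts in the first, was at 26.41 TPM from 15, 7 and 9 counts. The strand setting is not given in the sources used here, so reads of antisense genes and their partners cannot be told apart. Slfn5os shares 559 exon bases with Slfn5, which is 8.84% of the exon bases of Slfn5 and 50.7% of those of Slfn5os. Its 12, 17 and 7 expected counts in the first quantification had posterior SDs of 5.95, 6.77 and 3.36 counts. Gm20234 shares no exon base with Slfn2. Outside the cluster, Unc45b on one side had 0, 1 and 0 counts, and the further family member Slfn14 on the other side had 4, 11 and 19 counts, or 0.17 ± 0.154 TPM (SD, n = 3). Slfnl1 on chromosome 4 was at 0.20 ± 0.137 TPM (SD, n = 3).

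**Figure D2:**
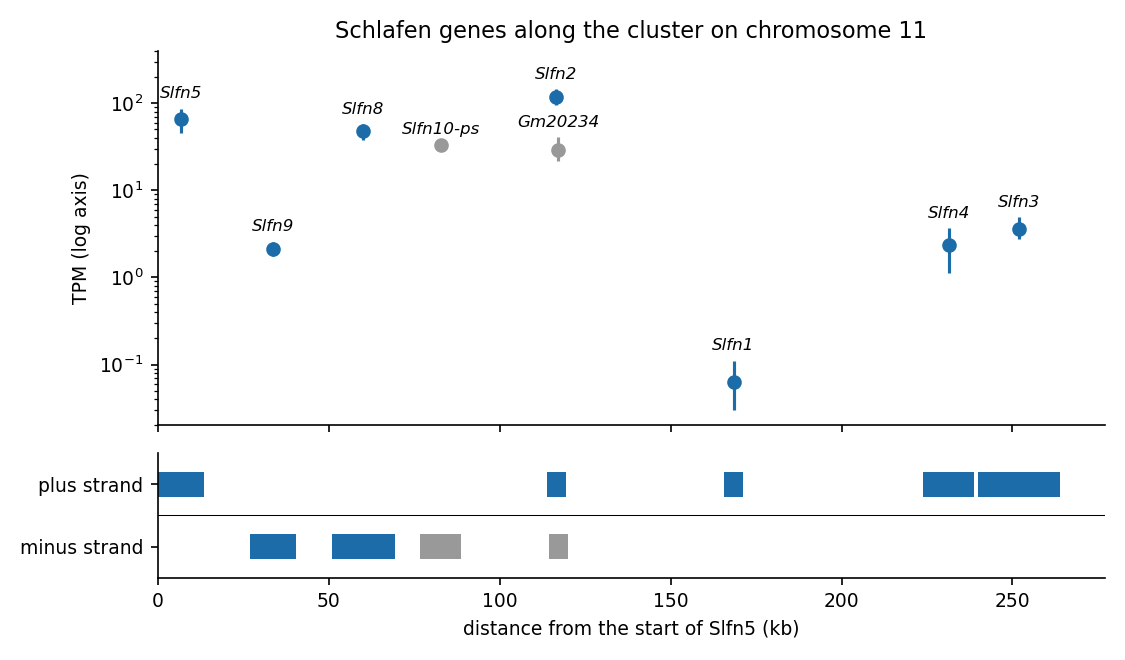
Mean TPM (log axis; vertical lines run from the lowest to the highest of the 3 libraries) of the 7 members in blue and of Slfn10-ps and Gm20234 in grey against distance from the start of Slfn5 in kb, with the gene spans by strand underneath. Slfn9 at 2.13 TPM lies between Slfn5 at 65.5 and Slfn8 at 47.6 TPM, and Slfn1 at 0.0633 TPM lies between Slfn2 at 116.5 and Slfn4 at 2.34 TPM.

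Between the libraries, the 6 detected members ranged over 0.43 to 1.27 log2 CPM. In edgeR's quasi-likelihood fit on all genes, 0 of 13309 genes passed an adjusted p of 0.05 (0.00%; 655 genes had an unadjusted p under 0.05), and 0 of the 6 members tested. The count over all genes was 17 without library 1, 49 without library 2 and 96 as DESeq2 dispersion outliers, and no member was among them. On simulated data the fit missed most of the smaller deviations put in, which were still larger than the widest range of a member, so the absence of a call does not show that the members were stable. Slfn4 had the widest range, from 2.56 log2 CPM in library 2 to 3.83 in library 1, with 3.52 in library 3 (unadjusted p = 0.062, adjusted p = 0.992 in edgeR). Slfn2 was at 8.08, 7.67 and 7.58 log2 CPM, Slfn5 at 8.95, 8.25 and 8.50, Slfn8 at 8.06, 7.42 and 7.36, Slfn3 at 3.57, 3.13 and 3.16 and Slfn9 at 4.28, 3.71 and 3.52 in libraries 1, 2 and 3. On log2 CPM library 1 held the highest value of all 6 detected members, while in TPM as deposited, which carries the shift between libraries, it held that of 0 of 6. Of the 10983 detected protein-coding genes, 26.4% were highest in library 1, and of a list of 35 interferon-stimulated genes 33 were. In TPM as deposited these were 2.87% and 6 of 35. Library 1 also held 13 of the 15 counts of Ifnb1, the gene of interferon beta, with 1 each in libraries 2 and 3. It was the library made from the most RNA, and the part of the starting amount was not tested. This count was made after the values were seen, and members in one library are not replicates.

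**Figure D3:**
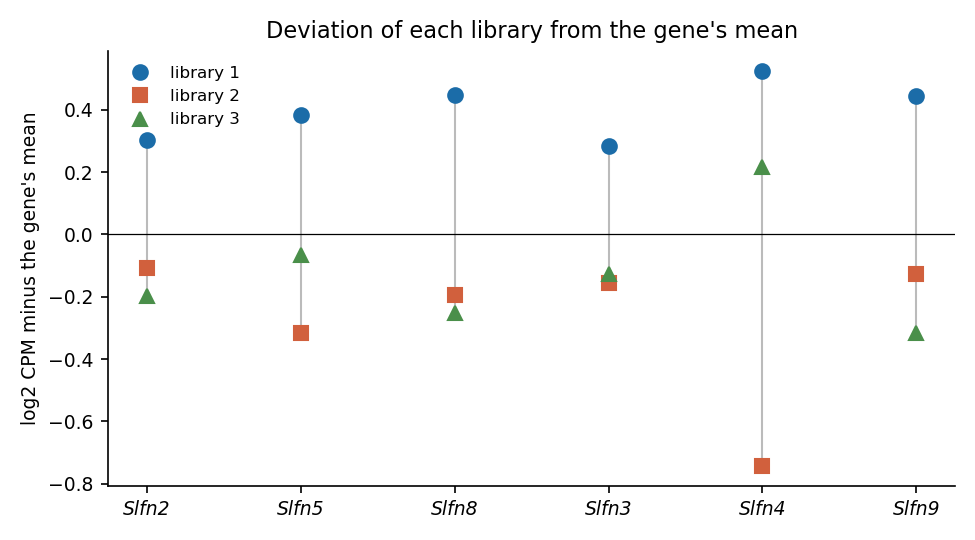
Log2 CPM of each detected member minus its mean over the 3 libraries, 1 symbol per library. Library 1 lies highest for all 6 genes on this scale (for 0 of 6 in TPM as deposited), and Slfn4 in library 2 lies farthest below its mean.

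Against other genes of the interferon system, the family was divided. The 35 interferon-stimulated genes, all detected, had a median of 16.4 ± 4.96 TPM, the 7 Schlafen genes one of 3.63 ± 1.11 TPM, and detected protein-coding genes one of 4.94 ± 1.75 TPM (SD, n = 3). The Schlafen median was 2.13 ± 0.19 lower on the log2(TPM + 0.1) scale (SD, n = 3). It was the level of Slfn3 in each library. With Slfn1 left out as undetected, the difference was -0.28 ± 0.17 (SD, n = 3). By mean TPM Slfn2 was exceeded by 1 of the 35, Rnf213, a large ubiquitin ligase, at 263.5 ± 19.5 TPM (SD, n = 3). Library by library it was exceeded by 2, 1 and 3 of the 35 in libraries 1, 2 and 3, Gbp5 being above it in libraries 1 and 3 and Ifi204 in library 3. In the second quantification Rnf213, Ifi204 and Gbp5 exceeded it by mean TPM. By mean TPM of the first quantification Slfn5 was exceeded by 7, Slfn8 by 10, Slfn3 by 31, and Slfn4 and Slfn9 by 33 of the 35. In the second, Slfn8 was exceeded by 13 and Slfn9 by 27. The next highest of the list were Gbp5 at 114.9 ± 61.3 TPM and Ifi204 at 114.7 ± 36.5 TPM, a guanylate-binding protein and a DNA sensor, and Oasl2 at 86.4 ± 34.1 TPM (SD, n = 3).

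Of 16 genes that make, sense or relay interferon, 15 were detected. The highest were Irf1, a transcription factor, at 744.2 ± 193.4 TPM, Ikbke at 313.2 ± 16.3 TPM, Tbk1 at 93.8 ± 15.7 TPM and Irf3 at 88.4 ± 25.7 TPM (SD, n = 3). Ikbke and Tbk1 are kinases that act on Irf3. Ifnb1 was the gene that was not detected, at 0.88, 0.08 and 0.12 TPM in libraries 1, 2 and 3. Slfn2 lay below Irf1 and Ikbke and above the other 14 in each library of the first quantification. In the second Tbk1 was above it too, in each library.

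The deposited files hold a second, separate quantification of the same reads. Among the members it departed most from the first for Slfn9 and Slfn3. Slfn9 was at 10.2, 6.74 and 11.1 TPM there in libraries 1, 2 and 3, which is 4.91, 3.81 and 4.35 times its first value. Slfn3 was at 7.37, 5.70 and 9.09 TPM, or 2.26, 2.07 and 1.86 times. These 2 of the 7 members exceeded a 2-fold difference of means, as did 23.1% of 10983 detected protein-coding genes, whose median difference was 0.49 log2. Without library 1 the difference of Slfn3 was 0.95 log2 and 1 member, Slfn9, exceeded 2-fold. Slfn9 lay above 94.2% of those genes by this difference and Slfn3 above 77.5%. The others lay lower, Slfn5 above 37.1%, Slfn8 above 13.7%, Slfn2 above 10.1%, Slfn1 above 9.09% and Slfn4 above 7.35%. A ratio near 1 was thus below that of most detected protein-coding genes. The mean ratio was 1.27 ± 0.225 for Slfn5, 1.05 ± 0.22 for Slfn8, 1.01 ± 0.213 for Slfn2, 0.966 ± 0.153 for Slfn4 and 0.918 ± 0.389 for Slfn1 (SD, n = 3). With the second values Slfn9 exceeded Slfn3, and Slfn3 minus Slfn9 was -0.33 ± 0.11 against 0.72 ± 0.16 in the first quantification (log2(TPM + 0.1), SD, n = 3). Both quantifications put these genes below Slfn2, Slfn5 and Slfn8 and above Slfn1 in every library.

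**Figure D4:**
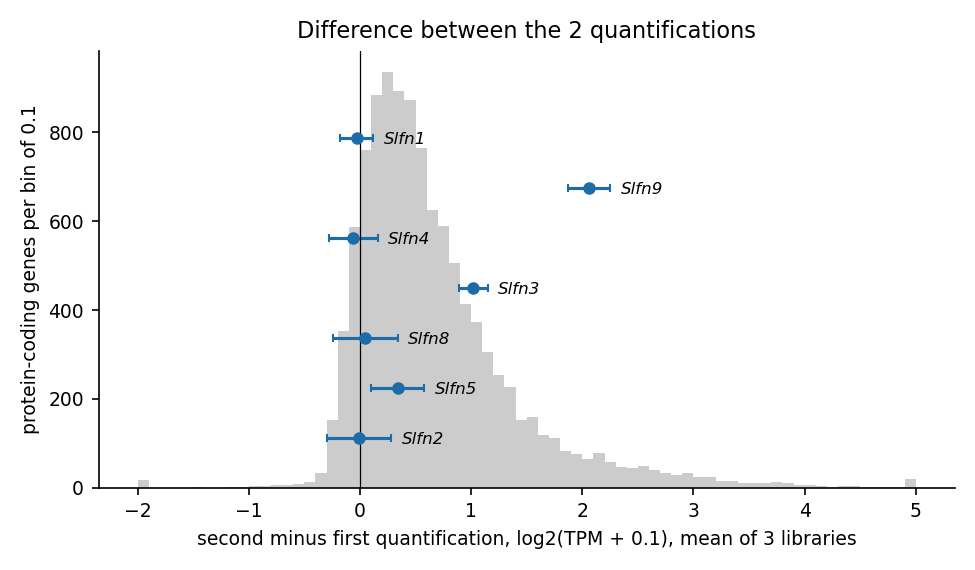
Second minus first quantification in log2(TPM + 0.1), mean of 3 libraries, as a histogram of 10983 detected protein-coding genes (values beyond the ends are drawn in the end bins) and as points with SD for the 7 members, whose height has no meaning. Slfn9 at 2.06 and Slfn3 at 1.02 lie to the right of the other 5, which lie at -0.06 to 0.34.

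Similar copies make it possible for reads to be split in more than one way. Of the distinct 31-base stretches in its annotated transcripts, Slfn8 shared 26.7% with other Schlafen genes, Slfn9 19.8%, Slfn3 15.9%, Slfn4 15.3%, Slfn2 8.14%, Slfn1 1.96% and Slfn5 none. Slfn9 shared most with Slfn10-ps, 14.3% of its stretches. With genes outside the family Slfn3 shared 19.8%, Slfn5 13.4%, Slfn4 10.1%, Slfn9 4.75%, Slfn2 4.35%, Slfn1 1.31% and Slfn8 0.579%. Slfn8 and Slfn4, with shares within the family near or above those of Slfn9 and Slfn3, had mean ratios of 1.05 and 0.966 between the quantifications. The posterior SD of the expected count in the first quantification was at most 2.00 counts for Slfn9 and 1.35 for Slfn3, against 200 to 301 and 145 to 183 counts. The part of shared sequence in the difference was not tested.

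Of the 5 members with several annotated transcripts, 3 had the same leading transcript in all 3 libraries. Slfn5-201 made up 66.2% ± 3.8 of Slfn5, Slfn9-201 made up 87.6% ± 8.02 of Slfn9, and Slfn8-201 made up 37.0% ± 7.31 of Slfn8, which has 6 transcripts (SD, n = 3). Slfn5-202 has the same coding length as Slfn5-201, 2652 nt, and held 19.9% of Slfn5 on average. Slfn8-202 has the same coding length as Slfn8-201, 2730 nt, and held 17.8% of Slfn8. The leading transcript of Slfn4 was Slfn4-201 at 68.4% and 58.6% in libraries 1 and 3 and Slfn4-202 at 73.1% in library 2, and both have the same coding length of 1806 nt. The leading transcript of Slfn3 on average was Slfn3-203, an annotated transcript with no coding sequence, at 44.1%, 55.1% and 35.7% in libraries 1, 2 and 3. In library 3 the coding Slfn3-201 led at 41.0%. Slfn3-203 lies inside the gene and starts 17466 bases from the RefSeq start of Slfn3.

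In the second quantification the same transcript led on average for all 5 genes, with other shares. The genes with one leading transcript in all 3 libraries were Slfn5, Slfn8 and Slfn9 in the first quantification and Slfn3, Slfn8 and Slfn9 in the second, where Slfn5-202 led Slfn5 in library 1 at 43.0% against 34.8% for Slfn5-201. Slfn3-203 held 79.2% ± 5.24 of Slfn3 (SD, n = 3), and the coding Slfn3-201 and Slfn3-202 held 11.4% and 9.36%. Slfn5-201 held 40.9% ± 6.35, Slfn8-201 50.4% ± 4.16 and Slfn9-201 97.5% ± 0.752 (SD, n = 3). The larger count of Slfn3 in the second quantification lay mostly in Slfn3-203, from 101, 96.6 and 73.0 counts in libraries 1, 2 and 3 to 396, 483 and 449. For Slfn9 it lay in Slfn9-201, from 297, 205 and 185 counts to 1516, 1412 and 1414. Slfn3-203 and Slfn9-201 are each the longest annotated transcript of their gene, at 2834 and 5769 nt. Counts were higher in the second quantification in general, with a median ratio to the first of 1.65 over detected protein-coding genes. The mean count ratio was 3.24 for Slfn3 and 6.27 for Slfn9, so not all of each rise was particular to these genes.

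**Figure D5:**
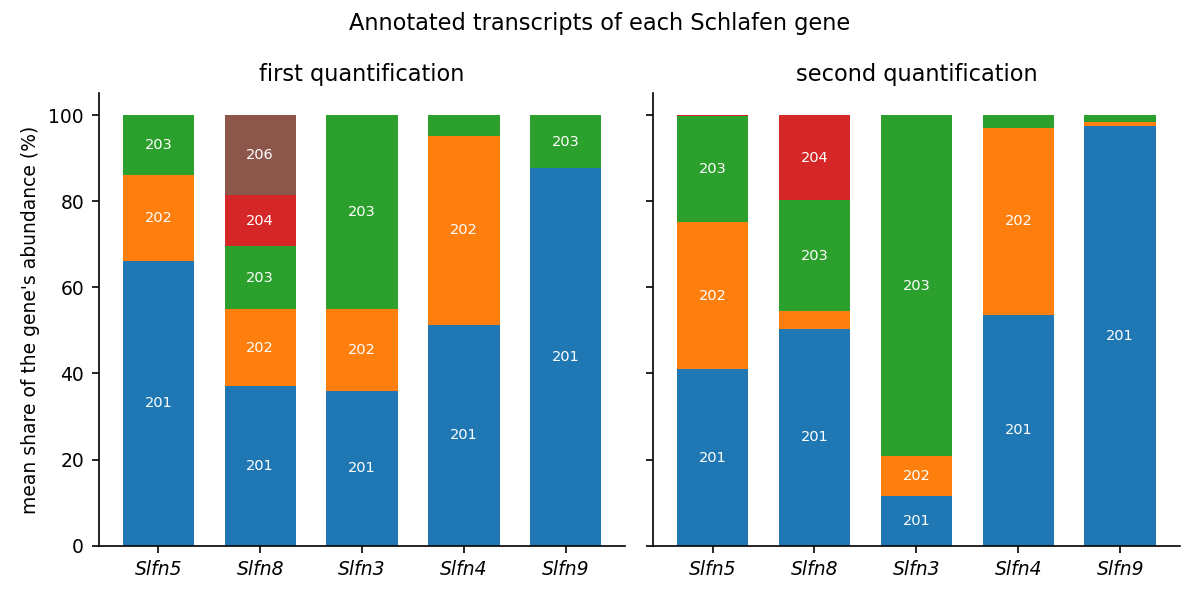
Mean share over 3 libraries, in percent, of each annotated transcript (numbers in the bars are the suffixes of the transcript names) in the abundance of the 5 members with several transcripts, for both quantifications. Slfn3-203 holds 44.9% of Slfn3 in the first and 79.2% in the second, and Slfn9-201 holds 87.6% and 97.5% of Slfn9.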

How the data were processed

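For each library the authors deposited a gene table, a transcript table and a table from a second quantification, on build mm10 and GENCODE M21 per the deposited file notes. Per the file headers, the first pair holds expected counts and TPM with posterior SDs, and transcript shares in percent. Per the file headers, the second holds estimated counts and TPM. No source used here names the tools, their versions or the strand setting. TPM was scaled by the authors and keeps no depth. The tables list annotated transcripts, so intronic reads belong to no gene unless another transcript covers them.

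Expected counts were rounded and fitted with edgeR 4.0.16 in R 4.3.3 (quasi-likelihood, intercept only, TMM, Benjamini-Hochberg over all genes), which was tested on simulated data. DESeq2 1.42.0 served as an alternative. Log2 CPM used a prior count of 0.5, and log2 TPM a pseudocount of 0.1, on which scale differences of low genes are understated. Entries on spike-in controls and other unannotated names, 0.218% to 1.03% of expected counts, were left out. No 2 libraries held identical counts. Counting intervals cover counting error only. Promoters came from RefSeq, and 31-base stretches and identities from GENCODE M21 transcripts, aligned with Biopython 1.88.

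Named were all members, other genes with a Slfn symbol, genes within and next to the cluster, the 4 highest genes of each interferon list with Ifnb1, and for the 2 highest members the 3 genes nearest in level. The members and lists were chosen with earlier results of these data known.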

Additional observations from a re-analysis of the deposited data

How the results depend on the processing

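The number of detected members, 6, and that of pairs with the same sign in every library, 20 of 21, stayed within 1.5 times under the alternatives run for each, the second quantification and leaving out each library among them. The number of members with one leading transcript in every library was 3 in both quantifications, but Slfn5 was replaced by Slfn3 in the second, and 3 to 4 when a library was left out. No member was called for spread under any alternative, which with this test says nothing about stability. The number of genes called for spread over all genes was 0 of 13309 and rose to 117 of 23976 without the low-count filter, 96 with DESeq2, 7 in the second quantification, and 17 without library 1 and 49 without library 2. The unadjusted p of Slfn4 was 0.0294 without the filter (adjusted p = 0.78, edgeR) and 0.0279 without library 3 (adjusted p = 0.915, edgeR). The Schlafen median minus the interferon-stimulated median was -2.13 log2, and became -1.89 with a pseudocount of 1, -1.39 in the second quantification, -1.28 with means in place of medians and -0.28 with detected members only. Members over 2-fold between the quantifications numbered 2, but 1 with a pseudocount of 1, and 1 to 2 when a library was left out (1 without library 1, where Slfn3 fell below). Among the pairs, Slfn2 minus Slfn5 became -0.79, Slfn3 minus Slfn4 -0.01 and Slfn3 minus Slfn9 -0.55 on log2 CPM, which drops the length correction, and Slfn3 minus Slfn9 became -0.33 and Slfn4 minus Slfn9 moved from 0.00 to -2.12 in the second quantification. Rescaling TPM over genes of at least 300 nt raised every level about equally, Slfn2 from 116.5 to 340.1 TPM. That library 1 was the highest for 6 of 6 members was the same under 4 other scalings, the second quantification among them, chosen after seeing the data, but 0 of 6 in TPM as deposited, which carries the shift between libraries. Slfn1, at 1 to 3 counts, is at the limit of the depth. No comparison of groups, paired or not, was possible because there is 1 group.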

Other observations

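The detected protein-coding genes nearest in level to Slfn2, by Euclidean distance of log2(TPM + 0.1) over the 3 libraries, were Pabpc1, which codes for a poly(A)-binding protein, at a distance of 0.101 and 121.0 TPM, Ms4a14 at 0.195 and 118.7 TPM, and Slamf7, a surface receptor of immune cells, at 0.196 and 111.5 TPM. Those nearest to Slfn5 were Ptp4a1, a phosphatase, at 0.166 and 64.3 TPM, Psmd8, a subunit of the proteasome, at 0.205 and 67.1 TPM, and Csrnp1 at 0.275 and 67.2 TPM. With 3 libraries of 1 condition, nearness in level is a description of abundance.

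Gm20234, the antisense gene across Slfn2, was at 217.6 ± 92.5 TPM in the second quantification against 29.1 ± 10.2 TPM in the first (SD, n = 3), while Slfn2 was at 116.8 ± 31.1 and 116.5 ± 25.8 TPM. In the second quantification it was thus above Slfn2 in each library, at 195.4, 138.2 and 319.1 TPM in libraries 1, 2 and 3, and in the first it was below Slfn2 in each. The cause was not tested.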
